A study of Mus musculus with 12 samples.

Results

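Mouse oocyte RNA-seq held 93 genes that were silent in every control library and present in both libraries of growing oocytes without Polycomb repressive complex 1 (PRC1). They were chosen from 55382 genes listed in both expression tables. A gene was taken if its abundance was at most 0.5 TPM (transcript abundance per length) in all 6 control libraries and at least 5 TPM in both PRC1 conditional knockout (cKO) libraries. TPM is a per-length abundance that sums to 1000000 in each library, so levels of different genes can be compared, but sequencing depth is unknown. Of 111 genes at these limits, 18 were left out by name because they belong to other gene groups. The names barred were those starting with Zscan4, Usp17l, Hox, Rhox, Lhx or mt- (mitochondrial genes) and those of 5 single genes. The difference between PRC1 control and PRC1 cKO therefore chose the genes, and it is given here as a description without a test.

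All 12 libraries were made from oocytes of mouse ovary, 2 for each of 6 groups, and all groups carry Ddx4-Cre, which recombines in germ cells. PRC1 control growing oocytes at postnatal day 7 are labelled Ring1-/-; Rnf2F/+, and PRC1 cKO growing oocytes of the same age are labelled Ring1-/-; Ring1F/-. That label names Ring1 for the floxed allele as well, so PRC1 cKO here means the libraries so labelled. Both PRC1 groups thus lack Ring1. PRC2 control oocytes are EedF/+ and PRC2 cKO oocytes are EedF/-, each as non-growing oocytes at day 6 and growing oocytes at day 7. Whether both libraries of a group stem from different animals is not in the labels, so any p-value measures the spread between libraries, which may be technical.

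PRC1 is a ubiquitin ligase complex that marks histone H2A on chromatin, with Ring1 or Rnf2 as its catalytic subunit. PRC2, in which Eed is a core subunit, methylates histone H3 at lysine 27. Together these complexes are known for holding developmental and lineage genes silent in cells where they are not used, and in growing oocytes they act on chromatin that is later passed to the embryo.

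Ring1, deleted in both PRC1 groups, was at 0 to 0.02 TPM in all PRC1 libraries. Rnf2 was at 59.2 and 53.8 TPM in PRC1 control, against 87.8 and 61.4 TPM in PRC1 cKO, so its whole-gene level does not check the cKO label, and the deleted part was not analysed here. Eed was at 60.5 to 90.5 TPM in PRC2 control and 9.64 to 12.1 TPM in PRC2 cKO. The oocyte markers Zp3 and Ddx4 were present in every library. Summed TPM of 17 listed oocyte markers was 31745 and 34256 in PRC1 control and lower in PRC1 cKO, at 24472 and 22506. PRC1 cKO libraries listed 15582 and 14940 gene models at 1 TPM or more, against 12313 and 12592 in PRC1 control. Models of the GENCODE class TEC, which awaits experimental checks, took 11.0% and 14.9% of TPM in PRC1 cKO against 22.5% and 20.9% in PRC1 control. Because TPM has a fixed sum, such a difference shifts the values of all other genes.

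A RefSeq start-site window (GRCm38.p6) was found for 51 of the 93 genes. For 6 genes whose upstream part holds no annotated exon, the 250 bases before the start are printed 5′ to 3′ on the gene's strand, with CpG dinucleotides in capitals. 1700013H16Rik, the most abundant of the 93 (chrX:53757832-53758081, minus strand), Tex101 (chr7:24672051-24672300, minus strand) and Tmem178 (chr17:80944382-80944631, plus strand) hold 9, 14 and 29 CpG. Gpx2 (chr12:76795555-76795804, minus strand) holds 0. Gm4302 (chr10:100340586-100340835, plus strand) and Gm4312 (chr10:100382561-100382810, minus strand), the outer members of a cluster, hold 1 each and are shown because they are nearly identical.
1700013H16Rik: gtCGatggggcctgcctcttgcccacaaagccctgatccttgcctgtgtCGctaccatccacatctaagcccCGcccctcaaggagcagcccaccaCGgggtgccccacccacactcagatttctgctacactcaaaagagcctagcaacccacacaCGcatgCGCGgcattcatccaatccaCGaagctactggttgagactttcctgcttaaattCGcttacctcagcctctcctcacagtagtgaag
Tex101: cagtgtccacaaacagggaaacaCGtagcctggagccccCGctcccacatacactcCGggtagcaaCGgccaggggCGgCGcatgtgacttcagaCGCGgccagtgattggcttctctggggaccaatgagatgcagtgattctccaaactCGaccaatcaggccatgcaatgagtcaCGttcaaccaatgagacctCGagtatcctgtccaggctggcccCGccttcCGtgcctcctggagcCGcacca
Tmem178: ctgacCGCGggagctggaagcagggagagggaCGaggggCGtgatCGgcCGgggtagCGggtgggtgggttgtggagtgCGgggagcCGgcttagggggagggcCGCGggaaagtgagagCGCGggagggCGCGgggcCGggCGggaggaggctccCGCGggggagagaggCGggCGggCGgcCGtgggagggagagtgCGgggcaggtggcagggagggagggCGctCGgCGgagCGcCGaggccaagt
Gpx2: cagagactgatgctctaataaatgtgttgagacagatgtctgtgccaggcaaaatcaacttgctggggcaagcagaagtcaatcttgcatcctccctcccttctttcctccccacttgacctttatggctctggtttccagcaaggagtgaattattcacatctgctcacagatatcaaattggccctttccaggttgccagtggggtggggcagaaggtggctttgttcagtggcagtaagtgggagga
Gm4302: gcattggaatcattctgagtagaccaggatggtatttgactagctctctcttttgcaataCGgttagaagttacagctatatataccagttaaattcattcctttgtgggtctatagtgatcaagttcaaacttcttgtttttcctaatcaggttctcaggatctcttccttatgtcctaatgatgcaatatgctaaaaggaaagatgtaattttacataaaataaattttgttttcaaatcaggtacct
Gm4312: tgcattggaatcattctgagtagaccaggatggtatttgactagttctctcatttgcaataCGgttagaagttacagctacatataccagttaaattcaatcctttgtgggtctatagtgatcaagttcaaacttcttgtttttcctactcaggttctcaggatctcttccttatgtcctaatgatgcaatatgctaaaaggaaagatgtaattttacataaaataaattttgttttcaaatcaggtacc
Shifted by 1 base, the last pair share 244 of 249 aligned bases.

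The 93 genes together summed to 13.5 and 15.3 TPM in PRC1 control and to 1167 and 992 TPM in PRC1 cKO, which is 0.117% and 0.0992% of all TPM in those 2 libraries. Their mean in PRC1 cKO ran from 5.29 to 78.0 TPM with a median of 8.17 TPM, so most were low transcripts. Means of at least 10 TPM were reached by 31 genes, and of at least 20 TPM by 10. In the controls, 5 genes were listed at 0 in all 6 libraries and 10 in both PRC1 control libraries. As background to the choice, limma on log2(TPM + 1) called 47.8% of 14941 tested genes of the PRC1 table different between the groups (41.3% higher and 6.45% lower). That share depends on the scaling: 6176 genes were higher and 964 lower as deposited, against 3193 and 3117 after trimmed-mean scaling, which moved the median log2 difference of all genes from 0.55 to -0.03. Without PRC1 control replicate 1 the calls in both directions fell from 7140 to 3747, and without PRC1 cKO replicate 1 to 4291. For bulk libraries, more cells expressing a gene and more transcript per cell cannot be told apart.

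**Figure D1:**
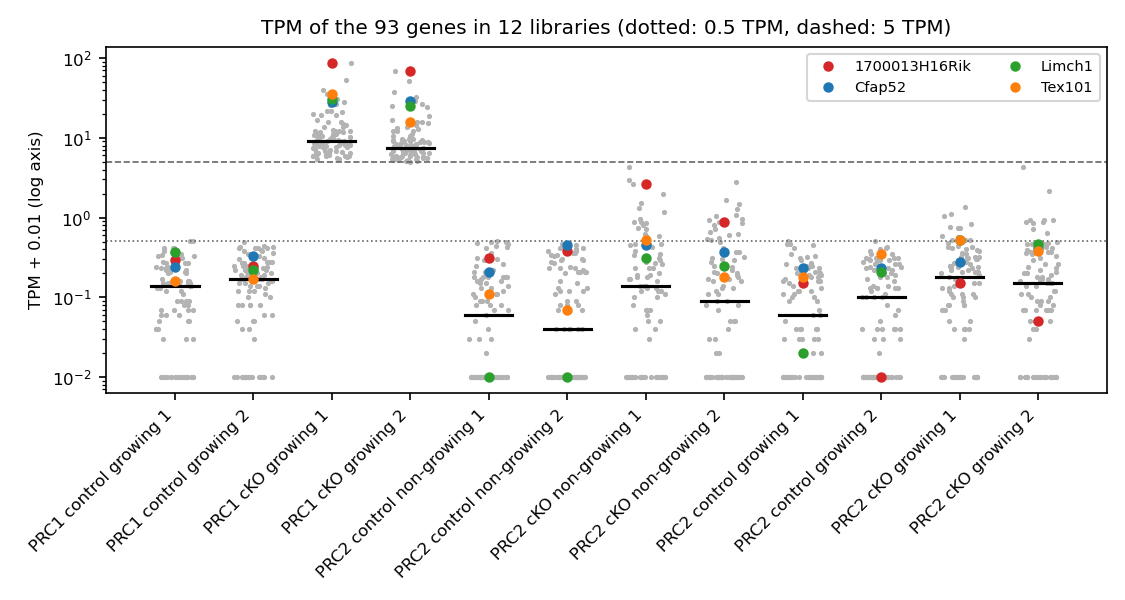
Each grey point is one of the 93 genes in one of the 12 libraries (vertical log axis, TPM + 0.01), black bars are medians, and 4 genes are coloured. Values lie at or under 0.5 TPM in the 6 control libraries and at or over 5 TPM in the PRC1 cKO libraries by choice, while no gene reached 5 TPM in a PRC2 cKO library.

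The limits cut through a continuum. Just inside the PRC1 cKO minimum were Gm48754 at 7.12 and 5.0 TPM, Gm4312 at 5.46 and 5.11 TPM and Fuom at 5.57 and 5.12 TPM. Just outside it were Gm21319 at 4.97 and 7.49 TPM, Esx1 at 8.91 and 4.95 TPM and Alpl at 9.0 and 4.81 TPM. At the control limit, Phldb2, 2610318N02Rik and Gm43049 had a highest control value of 0.50 TPM, while Adcy2 and Gm5409 at 0.51 TPM and Nt5el at 0.52 TPM were outside. Asking for only 1 of the PRC1 cKO libraries gave 123 genes without replicate 1 and 160 without replicate 2.

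By gene class, 66 of the 93 are protein coding (71.0%), against 23.2% of 37971 other genes that met the control limit. The rest are 12 pseudogenes of several kinds and 15 noncoding models. Models with 1 exon made up 22.6%, against 52.4% of the other silent genes. The median exon length was 1847 bases, against 792 bases in the other silent genes. The other silent genes had a median of 0 TPM in both PRC1 cKO libraries, so these comparisons are not matched for level there.

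Among genes of germ cells and the early embryo, Tex101 and Cfap52 stood near the top. Tex101 encodes a glycoprotein of the germ cell surface needed for sperm to migrate in the oviduct. Tex101 was at 0.15 and 0.16 TPM in PRC1 control, against 35.3 and 15.6 TPM in PRC1 cKO, one of the widest gaps between the PRC1 cKO libraries. Cfap52, a cilium and flagellum protein, was at 0.23 and 0.32 TPM in control, against 28.0 and 29.1 TPM in PRC1 cKO, where the libraries nearly coincide. Kdm4dl, annotated as an unprocessed pseudogene and related to the histone demethylase gene Kdm4d, was at 0.03 and 0.14 TPM in control, against 25.5 and 15.98 TPM in PRC1 cKO. Gm20767 was at 0.19 and 0.20 TPM in control, against 16.7 and 16.9 TPM in PRC1 cKO. The Gm20767 transcript is 90.1% identical to that of Tcstv3 over 55.7% of its length. The X-linked 1700013H16Rik was the most abundant of the 93 at 87.3 and 68.8 TPM in PRC1 cKO (78.0 ± 13.1, SD, n = 2) and 0.28 and 0.24 TPM in control.

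Transcription and chromatin regulators were 5 of the 93, and all 5 were higher in PRC1 cKO replicate 1 than in replicate 2. Utf1, a chromatin protein of pluripotent cells, was at 0.16 and 0.21 TPM in control, against 21.4 and 13.2 TPM in PRC1 cKO. Duxf3, the Dux homeobox gene that is active around the first cell divisions of the embryo, was at 0.05 and 0.19 TPM in control, against 15.02 and 6.52 TPM in PRC1 cKO. Dmrt1, which maintains male identity in the testis, was at 0.14 and 0.05 TPM in control, against 9.49 and 5.80 TPM in PRC1 cKO. The homeobox gene Dmbx1 reached 9.47 and 5.27 TPM, and the winged-helix gene Stox1 8.04 and 7.38 TPM. The median ratio of replicate 1 to replicate 2 was 1.64 in this group.

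Neural and sensory genes formed a group of 11, with PRC1 cKO means from 6.10 to 15.7 TPM, and 10 of the 11 were higher in replicate 1. Pak3, a kinase of dendritic spines, was at 0.08 and 0.40 TPM in control, against 19.2 and 12.3 TPM in PRC1 cKO. Pllp, a membrane protein of myelin, was at 0.22 and 0.48 TPM in control, against 19.2 and 9.07 TPM in PRC1 cKO. The netrin receptor gene Dcc was at 0.16 and 0.23 TPM in control, against 11.3 and 9.59 TPM in PRC1 cKO. Calb2, a calcium-binding protein of interneurons, reached 13.6 and 9.55 TPM, the GABA receptor subunit Gabra4 11.8 and 8.21 TPM, and the ephrin receptor Ephb1 10.7 and 8.60 TPM. Nefl, a neurofilament subunit, was at 7.66 and 7.21 TPM, values that differed little between the libraries. Prima1, Gnat2 and Mal are also in the group.

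Genes of cytoskeleton and muscle were 7, all higher in replicate 1. Limch1, a regulator of non-muscle myosin, was at 0.36 and 0.21 TPM in control, against 30.4 and 24.9 TPM in PRC1 cKO. Klhl41, a sarcomere-associated protein of skeletal muscle, was at 0.41 and 0.29 TPM in control, against 11.8 and 11.3 TPM in PRC1 cKO. The epithelial keratins Krt7 (12.1 and 7.15 TPM) and Krt24 (6.34 and 5.50 TPM) were joined by Phldb2, Popdc3 and Obsl1.

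Enzymes, transport proteins and secreted proteins numbered 12, with means from 5.35 to 17.4 TPM. The highest was Gpx2, a glutathione peroxidase of the gut epithelium, at 0.20 and 0.13 TPM in control, against 21.9 and 12.9 TPM in PRC1 cKO. Gpx2 overlaps Fntb on the opposite strand, and Fntb was at 5.2 and 7.39 TPM in control, against 7.07 and 4.76 TPM in PRC1 cKO, values that overlap between the groups. The group also holds Rbp4, the retinol carrier of blood, at 10.3 and 6.22 TPM, and Steap1 at 10.2 and 8.34 TPM. Gpihbp1, which anchors lipoprotein lipase to capillaries, was at 11.3 and 7.07 TPM. Signalling and immune genes were 5: Prkcq, a protein kinase C of T cells (15.6 and 14.5 TPM), Sh2d2a, a T-cell adaptor (14.6 and 8.92 TPM), P2ry1, Ppm1j and H2-Bl. H2-Bl, a class I histocompatibility model, was at 7.41 and 7.40 TPM, but its transcript is 90.4% identical to H2-D1, which was at 1.48 and 2.30 TPM in control, against 105 and 58.6 TPM in PRC1 cKO.

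Markers of other ovarian cell types that are no members of the 93 also differed between the PRC1 groups, and their part in these results was not tested. Summed TPM of 15 granulosa markers was 10.8 and 15.7 in PRC1 control and 54.5 and 34.1 in PRC1 cKO. Of 7 tested, limma called 5 higher, where it called 41.3% of all genes higher, and 3 higher and 1 lower after trimmed-mean scaling, where 21.7% and 21.1% of all genes were. Among them Inha was at 0.59 and 2.68 TPM in control, against 17.2 and 10.9 TPM in PRC1 cKO, Gja1 at 0.22 and 1.75, against 10.5 and 4.25 TPM, and Kitl at 1.22 and 0.86, against 7.78 and 4.95 TPM.

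Summed endothelial markers (11) were at 144 and 133 TPM against 111 and 134 TPM, of which Vwf alone made up 136 and 124 against 83.8 and 109 TPM. The other 10 summed to 8.64 and 8.49 TPM in control and to 27.4 and 24.5 TPM in PRC1 cKO. Among them, Tie1 was at 0.09 and 0.25 against 5.04 and 3.69 TPM and Cldn5 at 0.11 and 0.15 against 3.54 and 2.63 TPM. Of the full endothelial list, Vwf included, limma called 6 of 8 tested higher, where it called 41.3% of all genes higher. Summed immune markers (14) were at 14.3 and 15.5 against 45.3 and 39.1 TPM, of which C1qb made up 11.6 and 12.8 against 38.8 and 33.5 TPM. Summed surface epithelium markers (12, Krt7 among them) were at 32.6 and 45.7 against 252 and 195 TPM, and at 16.8 and 23.6 against 60.2 and 40.3 TPM without Epcam. Stroma and theca markers (14) were at 3.23 and 2.25 against 7.33 and 10.1 TPM, with Nr2f2 at 0.72 and 0.27 against 4.56 and 4.98 TPM, and erythroid markers (7) at 0.25 and 0.85 against 2.45 and 2.39 TPM. Each of these lists thus holds markers at higher values in PRC1 cKO, while some defining ones were low in both groups: in PRC1 cKO, Foxl2 was at 0.19 and 0.14 TPM, Amh at 0.24 and 0.04, Ptprc at 0.16 and 0.15, Cdh5 at 0.10 and 0.01, Pdgfra at 0.37 and 0.18 and Col1a1 at 0.27 and 0.23 TPM.

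Families of related models also made up part of the signal. Of the summed TPM of the 93 in the PRC1 cKO libraries, 10.7% and 11.3% came from Eif1a-related models. Models related to 4931428L18Rik gave 11.5% and 16.5%. The Eif1a-related family holds 9 members between 87514316 and 88274500 on chromosome 12 (GRCm38). Their transcripts are 87.1% to 95.2% identical to that of Eif1a, a translation initiation factor, over at least 54.8% of their length. The most abundant, Gm8332, was at 0.22 and 0.13 TPM in PRC1 control, against 53.5 and 38.0 TPM in PRC1 cKO, and the other 8 had means from 7.09 to 11.4 TPM. Eif1a itself was at 19.2 and 19.5 TPM in control, against 47.4 and 53.8 TPM in PRC1 cKO. The same interval holds 60 other gene models, of which 10 were higher in both PRC1 cKO libraries than in both controls, 6 lower, and 24 at 0 in all 4 libraries. The oocyte gene Oog1, within it, was at 132 and 91.6 TPM in control, against 31.8 and 43.3 TPM in PRC1 cKO. Neighbouring models in 1 interval thus differed in opposite directions. The same count over all genes was not made. By a different measure, limma called 41.3% of all tested genes higher in PRC1 cKO and 6.45% lower.

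The other family is related to 4931428L18Rik on chromosome 1 and holds Gm5698 and Gm6489 near that gene and 5 members (Gm4302, Gm8711, Gm4308, Gm8723 and Gm4312) between 100340836 and 100382560 on chromosome 10. Gm5698 was at 0.06 and 0.26 TPM in control, against 40.3 and 52.0 TPM in PRC1 cKO. Gm4302 was at 0 and 0.11 TPM in control, against 26.5 and 32.6 TPM in PRC1 cKO. In contrast to most of the 93, 6 of these 7 were higher in replicate 2, and the median ratio of replicate 1 to replicate 2 was 0.820. The parent-like gene 4931428L18Rik was at 63.7 and 55.4 TPM in control, against 118 and 128 TPM in PRC1 cKO. The other 4 models of the chromosome 10 interval were also higher in both PRC1 cKO libraries, but unevenly: Gm4305 was at 4.64 and 21.3 TPM, and Gm4307 at 11.7 and 0.66 TPM. Gm8723 was at 0 TPM in both controls and at 21.3 and 26.8 TPM in PRC1 cKO. Within the chromosome 10 set the transcripts are 93.8% to 100% identical. Those of Gm5698 and Gm6489 are 97.1% and 97.0% identical to that of 4931428L18Rik, over 100% and 95.8% of their length. The split of reads between such copies is therefore uncertain. The treatment of multi-mapping reads was not given in the sources used here.

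**Figure D2:**
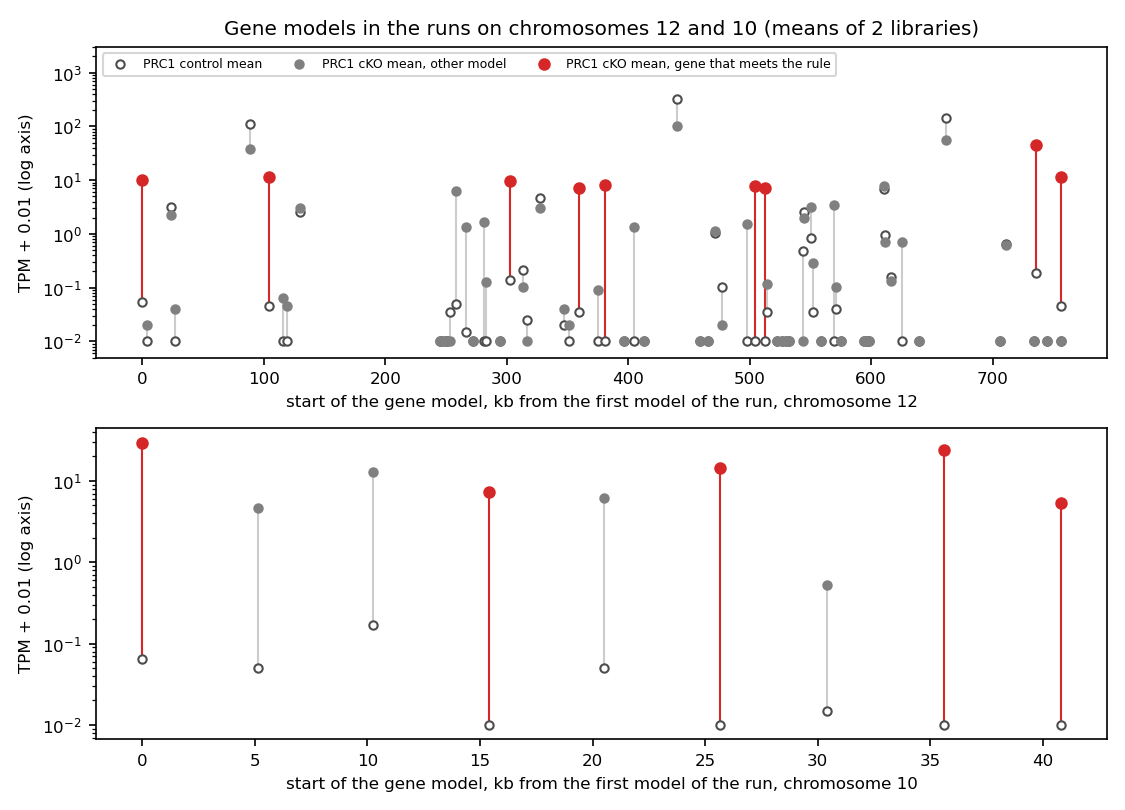
Gene models of the chromosome 12 interval (top) and the chromosome 10 interval (bottom) by start position relative to the first model, with the mean of the 2 PRC1 control libraries (open) and the 2 PRC1 cKO libraries (filled) on a log axis of TPM + 0.01. On chromosome 12 the 9 genes that meet the rule (red) stand among models at 0 and models that were lower in PRC1 cKO, while on chromosome 10 all 9 models were higher.

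Outside these families, Fam205c and Phf24, and B020004J07Rik and Gm12794, are pairs within 100 kb of each other on chromosome 4. Fam205c was at 9.13 and 9.19 TPM and Phf24 at 8.51 and 6.14 TPM in PRC1 cKO, and B020004J07Rik was at 7.82 and 7.3 TPM and Gm12794 at 7.7 and 5.48 TPM. In all, 16 of the 93 lie within 100 kb of another.

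Noncoding models were 15, with PRC1 cKO means from 5.77 to 15.3 TPM, and 10 of them were higher in replicate 1. Gm44356, annotated as a miRNA gene, was at 0 TPM in both controls and at 11.7 and 18.8 TPM in PRC1 cKO. Gm44356 overlaps Krt76 on the opposite strand. Krt76 was at 0.33 and 0.89 TPM in control, against 15.01 and 12.37 TPM in PRC1 cKO. Whether reads of Krt76 were counted for Gm44356 was not tested. Cerox1, an antisense model overlapping Sox8, was at 0.26 and 0.43 TPM in control, against 11.2 and 12.1 TPM in PRC1 cKO. Haglr, which lies antisense to Hoxd3, was at 0 and 0.13 TPM in control, against 7.95 and 8.63 TPM in PRC1 cKO. The values are whole-gene levels, so those of the small RNA models say nothing of a mature small RNA.

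Over all 93 genes, 34 have a transcript copy elsewhere with at least 90% identity over at least 80% of the length, and for 20 of these a copy is another of the 93. For 10 a copy was above 1 TPM in a PRC1 control library. The other 59 have no such copy. Members of chromosome 12 made up 15.1% of the 93, against 4.63% of the other silent genes, and 9 of the 14 belong to the Eif1a-related set. The X chromosome held 5 members (5.38%), against 5.13%. Gene models overlap another model in 32 cases, 25 with one on the opposite strand, and in 6 cases the overlapping gene was at 1 TPM or more in PRC1 control. Strand use in counting was likewise not stated in those sources. An example is Gm23823, a small nucleolar RNA model on the opposite strand to Enox1, at 6.35 and 5.67 TPM in PRC1 cKO while Enox1 was at 266 and 225 TPM in control, against 139 and 159 TPM in PRC1 cKO.

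**Figure D3:**
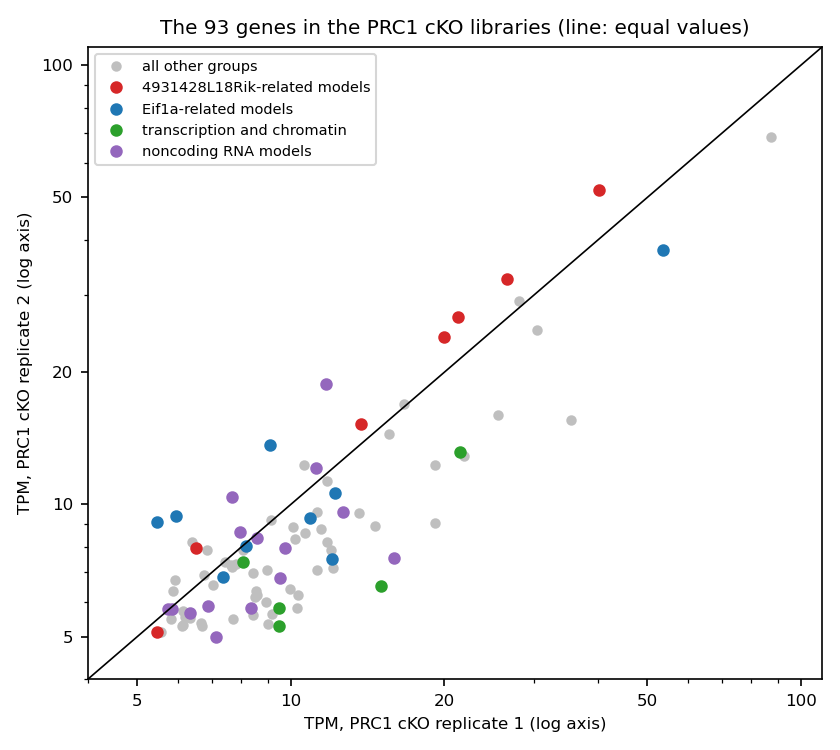
The 93 genes in PRC1 cKO replicate 1 (horizontal) against replicate 2 (vertical), both log axes of TPM, with the line of equal values and 4 groups coloured. Of the 93, 70 lie below the line and 23 above it, and 6 of the 7 models related to 4931428L18Rik lie above it.

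The libraries of PRC1 cKO differed by a median ratio of 1.16 (replicate 1 to replicate 2) over the 93 genes, with a range from 0.601 for Gm2056 to 2.30 for Duxf3. Over all 9539 genes at 5 TPM or more in both, the median was 1.12, and 67.7% were higher in replicate 1, against 75.3% of the 93. The lean to replicate 1 was therefore seen among all genes at this level as well.

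The PRC2 cKO libraries were not used to choose the genes, although the PRC2 controls were. No member reached 5 TPM in any of the 4 PRC2 cKO libraries; the highest value was 4.35 TPM (Gm23823), and 81 of 93 were below 1 TPM in all 4. At 1 TPM or more in both non-growing PRC2 cKO libraries were 3 members (3.23%), against 0.063% of all 38082 genes at the control limit, and in both growing libraries 1 (1.08%), against 0.0184%. With 1 library in place of 2 these counts were 6 (without replicate 1) and 7 (without replicate 2) in non-growing oocytes and 2 and 3 in growing oocytes. Steap1 was at 1.3 and 1.06 TPM in non-growing PRC2 cKO and 0.17 and 0.26 TPM in its controls. Fthl17f, an X-linked relative of ferritin heavy chain, was at 1.94 and 1.48 TPM against 0.19 and 0.29 TPM. Gm4349, a long noncoding RNA model, was at 1.52 and 1.63 TPM against 0.24 and 0.10 TPM, and was the one at 1 TPM in both growing PRC2 cKO libraries, at 1.36 and 2.16 TPM against 0.44 and 0.26 TPM. In each of these, both cKO libraries lay above both controls.

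Nearly all member values in the PRC2 table were below 1 TPM, and members were more often higher than lower in PRC2 cKO. In non-growing oocytes 25 of the 93 genes (26.9%) were higher in both PRC2 cKO libraries than in both controls and 5 (5.38%) lower, against 3.68% and 2.71% of all genes at the control limit. In growing oocytes 31 (33.3%) were higher and 3 (3.23%) lower, against 3.98% and 1.52%. The median of the other genes at the control limit was 0 TPM in every library, so a closer background is the 5309 protein-coding genes at that limit with a value above 0 in at least 1 control. Of these 11.8% were higher in non-growing and 16.5% in growing PRC2 cKO oocytes, against 20 of 63 (31.7%) and 26 of 63 (41.3%) protein-coding members with such a value. At both stages 15 genes (16.1%) were higher, among them Tex101, Limch1, Dcc, Calb2 and Steap1. Of all genes at the control limit 0.746% were, and the closer background was not counted for both stages together. Tex101 went from 0.17 and 0.34 TPM to 0.51 and 0.37 TPM in growing oocytes, and Calb2 from 0.08 and 0.28 TPM to 0.81 and 0.93 TPM. The summed level of the 93 was 9.73 and 9.89 TPM in non-growing control against 32.9 and 24.3 TPM in non-growing cKO, and 10.1 and 11.3 TPM against 21.4 and 25.7 TPM in growing oocytes. The controls had been capped at 0.5 TPM by the rule and the cKO libraries had not, for the members and the background genes alike.

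The tests in the PRC2 table reached few of the genes. Only 4 passed the filter of 1 TPM in 2 libraries, and they passed through their cKO libraries, so the filter favoured that direction. The rule had also capped their controls at 0.5 TPM, but not those of the other tested genes. None was called by limma (adjusted p 0.0575 to 0.497 in non-growing oocytes, where 0.311% of 14153 genes were called, 0.113% higher and 0.198% lower, and 0.190 to 0.627 in growing oocytes, where 0.17% were, 0.12% higher and 0.0495% lower). Without the filter, limma on 89 of the 93 called none in either comparison, with smallest adjusted p of 0.0600 and 0.209, and 15 (16.9%) and 14 (15.7%) had an unadjusted p under 0.05, against 11.6% and 7.58% of all genes. Of all genes, that fit called 0.297% in non-growing oocytes (0.153% higher, 0.144% lower) and 0.163% in growing oocytes (0.101% higher, 0.062% lower). For Fthl17f the log2 difference was 1.12 in non-growing oocytes (SE 0.16, limma adjusted p = 0.0575). The difference of the PRC2 effect between stages did not pass for any of the 4 (limma adjusted p 0.306 to 0.976, where 0.0989% of genes passed).

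**Figure D4:**
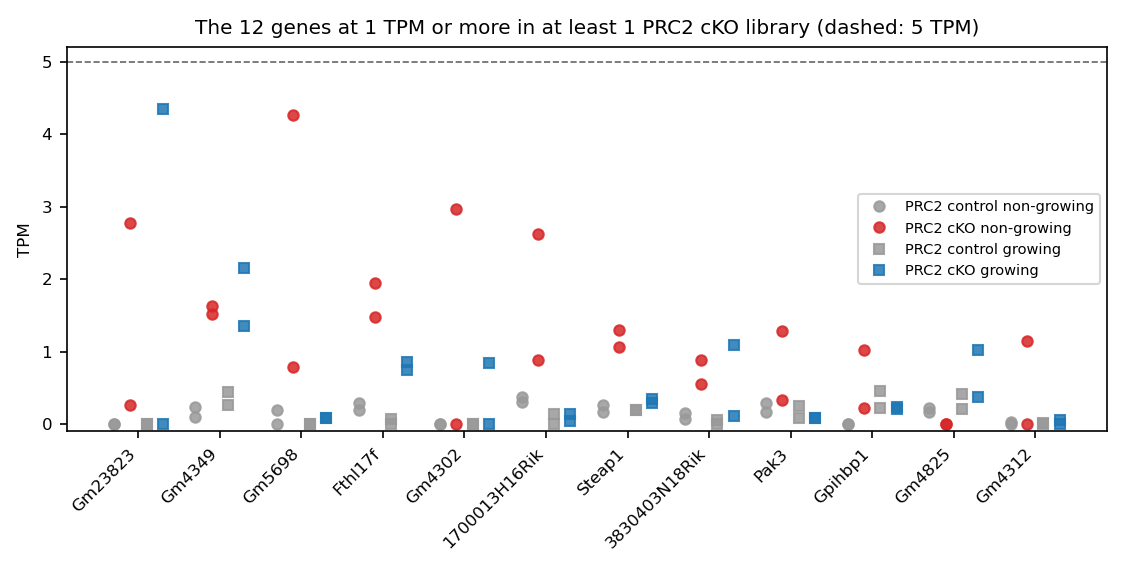
TPM (linear axis) of the 12 genes at 1 TPM or more in at least 1 PRC2 cKO library, in the 8 PRC2 libraries, controls in grey and cKO coloured by stage. All values lie below 5 TPM, and for Gm5698, Gm4302, Gm23823 and 1700013H16Rik 1 library of a stage holds most of its signal.

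For several members the PRC2 cKO signal came from 1 library. Gm5698 was at 4.26 and 0.79 TPM in non-growing PRC2 cKO, Gm4302 at 2.97 and 0, and Gm4312 at 1.15 and 0 TPM. The 7 models related to 4931428L18Rik summed to 9.81 TPM in non-growing PRC2 cKO replicate 1 and 0.90 in replicate 2, against 0.09 and 0.26 TPM in the controls. 1700013H16Rik was at 2.62 and 0.88 TPM in non-growing PRC2 cKO, above its controls at 0.30 and 0.37 TPM, but at 0.14 and 0.04 TPM in growing PRC2 cKO. The Eif1a-related set stayed at a sum of 0.82 TPM or less in all PRC2 cKO libraries. Replicates of a group did not share these values, so they are given by library.

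The rule used none of the 4 PRC2 cKO libraries in which growing and non-growing oocytes were compared. Steap1 and Fthl17f passed the filter through their non-growing cKO libraries alone, however, so the filter favoured a decrease. The spread behind each SE and p-value also came from all PRC2 libraries in 1 fit. These include the controls, which the rule had capped at 0.5 TPM for the members, so the p-values are not independent of the rule. Steap1 fell by 0.72 on the log2 scale between non-growing and growing PRC2 cKO oocytes (SE 0.14, limma adjusted p = 0.00382), from 1.3 and 1.06 TPM to 0.29 and 0.35 TPM. Fthl17f fell by 0.58 (SE 0.16, limma adjusted p = 0.0149), from 1.94 and 1.48 TPM to 0.75 and 0.86 TPM. The difference for Gm4349 was 0.09 (limma adjusted p = 0.716), and for Gm23823 it was 0.08 (limma adjusted p = 0.937). Between these 2 groups of PRC2 cKO oocytes 66.1% of tested genes were called (46.0% lower and 20.1% higher in growing oocytes), with a median log2 difference of -0.45. Trimmed-mean scaling moved that median to 0.00, with 4443 genes higher and 4282 lower. All non-growing oocytes were of day 6 and all growing oocytes of day 7, so growth and age cannot be told apart. The Fthl17f call was lost after trimmed-mean scaling (limma adjusted p = 0.156), after protein-coding scaling (0.124) and without PRC2 cKO growing replicate 1 (0.0516), and Steap1 was under the filter after either scaling or without either non-growing cKO library. Without the filter, 10 of 89 members were called higher in growing than in non-growing PRC2 cKO oocytes and 6 lower by limma, where 32.9% of all genes were called (10.5% higher and 22.4% lower). Steap1 (limma adjusted p = 0.00314) and Fthl17f (0.0238) were among the 6, as were 1700013H16Rik, Krt24, Kdm4dl and Gm47486. Without a test, 22 of the 93 members did not overlap and were higher in growing PRC2 cKO oocytes, and 15 were lower. Of all 38082 genes at the control limit, 3.88% were higher and 5.86% lower. The other genes at that limit had a median of 0 TPM in each PRC2 cKO library, and a gene at 0 TPM in all of them cannot differ. These shares are thus not a close background, a closer one was not counted, and a stage effect particular to the members was not tested.

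At their start sites the members held more CpG at the median than other silent genes did. In 300-base RefSeq windows (250 before to 50 after the start) the median was 9 CpG for the 51 members with a window, 4 for 9590 other genes at the control limit and 11 for all 20968 genes with a window. At least 15 CpG were held by 20 members (39.2%), against 16.5% of the other silent genes and 42.4% of all genes. At most 3 were held by 12 members (23.5%), against 47.4% and 26.5%. Among protein-coding genes alone, 39.1% of members and 18.7% of other silent genes held at least 15. Averaged over the windows of a gene, the highest values were those of Tmem178 and Prkcq (37 CpG each) and of Steap1 and Prima1 (33 each), while Gpx2 held none and 5 members, Gm4302 and Gm4312 among them, held 1 each.

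**Figure D5:**
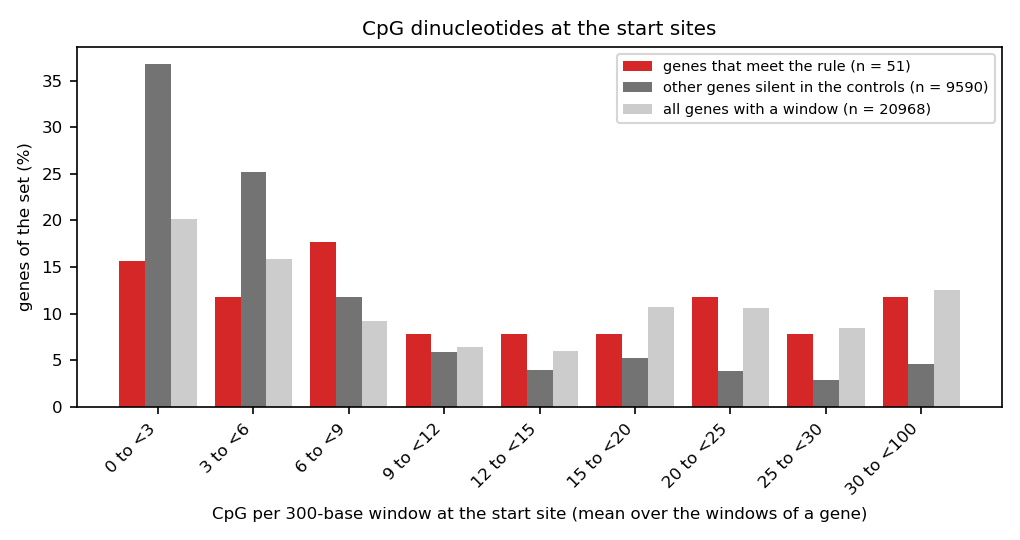
Share of genes (vertical, percent) by number of CpG dinucleotides in the 300-base window at the start site (horizontal, mean over the windows of a gene), for the 51 genes that meet the rule, 9590 other genes silent in the controls and all 20968 genes with a window. The 51 genes (red) spread over all bins, with 20 at 15 CpG or more.

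Several motifs were searched on both strands of the same windows, and a match is only a description. The E-box CACGTG was in 2 of 51 members (3.92%, Cerox1 and Pak3), against 5.33% of the other silent genes and 8.66% of all genes. TTCCCGC, a core of E2F-type sites, was in 3 (5.88%, Tmem178, Limch1 and Fuom), against 2.69% and 6.27%. In the printed Tmem178 sequence it lies on the opposite strand. A Dux-type motif, TGATT and AATCA with any 1 base between them, was in none, against 0.052% and 0.033%.

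Other genes of germ cells and cilia, from lists fixed with earlier results of these data known, were examined beside the 93. Of 49 tested germline genes that somatic cells repress, limma called 36 (73.5%) higher and 1 lower in PRC1 cKO, against 41.3% and 6.45% of all genes (median log2 difference 1.48, against 0.55). With trimmed-mean scaling 28 passed as higher and 6 as lower, against 21.7% and 21.1% of all genes (median 0.83, against -0.03). Taf7l, a germ cell transcription factor subunit, was at 0.47 and 0.55 TPM in control, against 40.4 and 28.5 TPM in PRC1 cKO, and Sycp1, of the synaptonemal complex, at 41.3 and 48.0 TPM against 450 and 333 TPM. Of 43 tested axoneme and motile cilium genes other than Cfap52, 22 (51.2%) were called higher and 1 lower, near the 41.3% and 6.45% of all genes (median 0.96). The counts were 19 and 4 of 42 with trimmed-mean scaling, 11 and 4 under quantile normalization, where 18.2% of all genes were higher and 17.6% lower, and 10 of 30 and 12 of 31 higher without PRC1 cKO replicate 1 or 2, where 26.3% and 38.0% of all genes were. Rsph1, a radial spoke protein, was at 0.35 and 0.55 TPM in control, against 17.2 and 10.2 TPM in PRC1 cKO. Of 17 tested sperm genes other than Tex101, 9 (52.9%) were called higher and 1 lower, also near the share of all genes (median 0.81). The counts were 5 and 3 with trimmed-mean scaling, 3 and 3 under quantile normalization, and 3 and 4 of 11 higher without PRC1 cKO replicate 1 or 2. Ly6k, a sperm membrane protein of the Tex101 family, was at 0.07 and 0.12 TPM in control, against 22.5 and 16.1 TPM in PRC1 cKO.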

How the data were processed

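The 12 RNA-seq libraries of mouse oocytes were grouped by the sample labels. The authors deposited 2 TPM tables, of 55401 (PRC1) and 55385 (PRC2) gene models; each library sums to 1000000, so depth is unknown and no count test was made. RSEM 1.3.3, HISAT2, Subread 2.0.3, SAMtools and Trim Galore 0.6.10 and the GRCm38/mm10 build are named in the submitters' processing notes; the tool behind the TPM was not given in the sources used here. No column was left unused (0 columns).

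The tables were joined by gene identifier. Tests were made within a table with limma 3.58.1 (R 4.3.3, trend) on log2(TPM + 1), over genes at 1 TPM or more in 2 libraries, two-sided, Benjamini-Hochberg adjusted at 0.05, with all groups of a table in 1 fit. Fits were tested on simulated data. Classes came from GENCODE vM21, start-site windows from RefSeq GRCm38.p6, and copies from blastn 2.17.0. Genes named are the 4 given markers, the 15 most abundant protein-coding members, those nearest each limit, those highest in PRC2 cKO or passing a PRC2 test, neighbours within 100 kb, and up to 4 genes of each list; other members named for their role, and Gja1, Vwf and the markers low in both groups, were chosen after their values were seen. The members and lists were chosen with earlier results of these data known. Alternatives were pseudocounts of 0.5 and 5, no filter or 5 TPM, 3 scalings, a replicate block and each library left out. Not every member is described in the text, and 1 is not reported here.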

Additional observations from a re-analysis of the deposited data

Results flagged for a closer look

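For 3 of the 93 genes (3.23%) both PRC2 cKO libraries lay below both controls in non-growing oocytes and above both in growing oocytes, a pattern that 0.378% of all 38082 genes at the control limit showed. The median of the other genes at that limit was 0 TPM in every library, and a gene at 0 TPM in a non-growing control cannot show the pattern. The 0.378% is thus not a close background, and a closer one was not counted. For the 3 genes the difference between the stages was not tested, because they were under the filter. Their values in the PRC2 libraries are all below 1 TPM. For Cerox1 the mean difference of PRC2 cKO minus control was -0.175 TPM in non-growing oocytes (cKO at 0 and 0 TPM) and 0.435 TPM in growing oocytes (cKO at 0.51 and 0.70 TPM). For Ppm1j the differences were -0.22 and 0.125 TPM. For Nefl they were -0.02 and 0.065 TPM. With 2 libraries a group, none was tested for a library that stands apart.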

How the results depend on the processing

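The number of genes that meet the rule was 33 with a control limit of 0.2 TPM and 161 with 1 TPM, 297 with a PRC1 cKO minimum of 2 TPM and 21 with 10 TPM; it ranged from 95 to 160 with 1 library left out. Protein-coding scaling kept 83 of the 93 among 87 genes. The count at 1 TPM or more in both PRC2 cKO libraries, 3 in non-growing and 1 in growing oocytes, was 9 and 5 at 0.5 TPM, 0 and 0 at 2 TPM, and 2 in growing oocytes after protein-coding scaling; with 1 library left out it was 6 to 7 and 2 to 3. Calls in PRC1 cKO over all genes (7140) ranged from 3747 to 5865 with 1 library left out. PRC2 calls in non-growing oocytes (44) were 87 with a pseudocount of 5, 91 without a filter and 25 after trimmed-mean scaling, and 6 to 48 with 1 library left out, lowest without PRC2 control non-growing replicate 2. PRC2 calls in growing oocytes (24) were 50 without a filter and 9 to 28 with 1 library left out, lowest without PRC2 cKO growing replicate 2. In non-growing oocytes Fthl17f passed with a pseudocount of 5 (limma adjusted p = 0.049), with its controls capped by the rule. The causes were not tested. A left-out library leaves 1 in its group, whose spread is then assumed to be that of the other groups.

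Replicate numbers are shared between groups of 2, and the labels do not say that they pair the libraries. Correlations of deviations between libraries of the same number ran from -0.27 to 0.26. With 2 libraries a group they can neither show nor exclude pairing. With the replicate number as a block, calls were 5094 in PRC1 cKO and 20 and 16 in PRC2 cKO (non-growing, growing). They were 9543 between growing and non-growing PRC2 cKO oocytes. With the PRC1 numbers crossed, an alternative added after seeing the data, calls were 9501.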

Other observations

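The gene 4931428L18Rik, to which 7 of the 93 genes are related, was not silent in the controls and varied with growth. It was at 3.16 and 2.29 TPM in non-growing PRC2 control and 15.9 and 7.80 TPM in non-growing PRC2 cKO, and at 61.2 and 56.1 TPM against 74.9 and 60.9 TPM in growing oocytes. Of 37 other models between the chromosome 15 members Krt7 and Gm44356, 11 were higher in both PRC1 cKO libraries than in both controls, 1 was lower, 7 overlapped and 18 were at 0 in all 4 libraries. This count was not made over all genes, of which limma, a different measure, called 41.3% of those tested higher and 6.45% lower. Krt71 was at 0.20 and 0.45 TPM in control, against 23.0 and 17.1 TPM in PRC1 cKO, and Krt73 at 0.85 and 1.43 TPM against 14.7 and 15.4 TPM, whereas Krt84 was at 30.4 and 32.1 TPM against 23.1 and 26.6 TPM. Gm5039, a near copy of the Eif1a-related models (97.5% identical to Gm8332), was just above the control limit at 0.54 and 0.42 TPM and reached 31.6 and 28.2 TPM in PRC1 cKO.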
